A study of Mus musculus with 10 samples.

Results

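The genes described here load amino acids onto transfer RNA (tRNA) or finish its 3′ end. They are the protein-coding genes whose symbols follow the pattern of the aminoacyl-tRNA synthetases, together with Eprs1, Farsa, Farsb, Ears2, Pars2, the scaffold genes Aimp1, Aimp2 and Eef1e1, and Trnt1. The rule, which works by symbol, found 41 genes among the 55401 in the count table. It was chosen with earlier results of these data known, in which Trnt1 and Aimp1 already appeared among the smallest p. They comprise 18 cytosolic enzymes or enzyme subunits, 2 genes that encode both a cytosolic and a mitochondrial enzyme (Gars1 and Kars1), 17 mitochondrial enzymes, 3 scaffold genes and Trnt1.

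Tumor fragments from 10 mice were profiled by RNA sequencing, 5 from animals given liraglutide and 5 from animals given PBS vehicle. The tumors had grown under the skin from KPN1.1, a single mouse lung adenocarcinoma line, and both groups carried the same line. About 75000 cells were injected into the flank of obese male C57BL/6J mice on a high-fat diet, aged 7 to 17 weeks at injection. Liraglutide, a glucagon-like peptide-1 receptor agonist, was given daily at 0.2 μg/g body weight from the time a tumor could be felt, and tumors were taken 19 to 22 days after injection.

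A synthetase joins one amino acid to its matching tRNAs, and the ribosome reads the product. Many amino acids have separate nuclear genes for the enzyme used in the cytosol and the one imported into mitochondria. A group of cytosolic synthetases is held in a multi-synthetase complex by AIMP1, AIMP2 and EEF1E1, whereas TRNT1 adds the terminal CCA bases without which no tRNA, cytosolic or mitochondrial, can be charged. The transcription factor ATF4, acting with C/EBP proteins in the integrated stress response, is known to raise many cytosolic synthetase genes, and WARS1 is a well-known target of interferon-gamma.

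Because ATF4 and C/EBP bind as a pair to a composite element, the promoters of the members were searched for TGATGNAA on either strand (TTNCATCA on the other), a search chosen after the levels given below had been seen. RefSeq windows on GRCm38.p6, 250 bases before to 50 after each start, were found for 30 of the 41 members. The element was present in 4 of 11 cytosolic enzymes, 1 of the 2 shared genes, 0 of 14 mitochondrial enzymes and 0 of 3 scaffold genes. Of all genes in the table, 4.51% held it. Stretches around its matches, 1 for each of the 5 genes, are shown because the same genes recur below among those highest in one vehicle tumor. Each is 30 bases on the strand of the gene, with the match in capitals:
Aars1: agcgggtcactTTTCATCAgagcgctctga
Iars1: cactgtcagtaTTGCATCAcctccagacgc
Tars1: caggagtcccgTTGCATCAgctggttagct
Yars1: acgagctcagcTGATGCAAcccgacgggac
Gars1: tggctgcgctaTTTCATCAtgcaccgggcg

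These stretches lie at chr8:111033840-111033869 for Aars1, chr13:49682126-49682155 for Iars1, chr15:11399655-11399684 on the minus strand for Tars1, chr4:129189895-129189924 for Yars1 and chr6:55037960-55037989 for Gars1. The match begins 30 bases before the start in Gars1 and 15 before it in Tars1. In Aars1, Iars1 and Yars1 it begins 10, 8 and 4 bases into the transcript. A match of letters is a description and does not show that a factor was bound there.

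The tumors had total counts of 9927942 to 14480593. Counts were scaled by library size and TMM factors to CPM (counts per library of one standard size), and the 17464 genes that passed the expression filter were compared by edgeR's quasi-likelihood test. All 41 members passed, the least abundant being Sars2 with 27 to 72 counts per tumor. At an adjusted p under 0.05 the test called 0 of the 17464 genes (0%), and the smallest adjusted p was 0.482. At an unadjusted p under 0.05, 1675 genes were found, and DESeq2 called 40 genes at an adjusted p under 0.05. The epithelial keratins Krt8 and Krt18 were high in every tumor, and the lung lineage factor Nkx2-1 had 175 to 1776 counts. The lung surfactant gene Sftpc (0 to 80 counts), Napsa (4 to 30) and Epcam (2 to 67) were low. Vehicle tumor 5 stood apart for many members and vehicle tumor 2 for one, and the main results that rest on them are also given without them.

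Across the family, levels leaned lower with liraglutide. The log2 fold change was negative for 33 of 41 members and positive for 8, with a median of -0.13, against -0.02 over all tested genes, of which 52.6% were negative. None was called at an adjusted p under 0.05. At an unadjusted p under 0.05, 7 members were lower, among them Trnt1, Aimp1, Eef1e1, Gars1, Rars1 and Lars2, and 0 were higher, where 5.62% of all genes were lower and 3.97% higher. The lower groups did not overlap for 2 members, Trnt1 and Aimp1, against 0.888% of all genes, and no member had a higher group without overlap, against 0.607%. Without vehicle tumor 5 the lean was largely gone, with 22 members negative, 19 positive and a median of -0.05. At an unadjusted p under 0.05, 5 members were then lower and 2 higher, where 7.44% of all genes were lower and 6.10% higher. In these bulk fragments fewer cells of a type and less RNA per cell cannot be told apart.

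**Figure D1:**
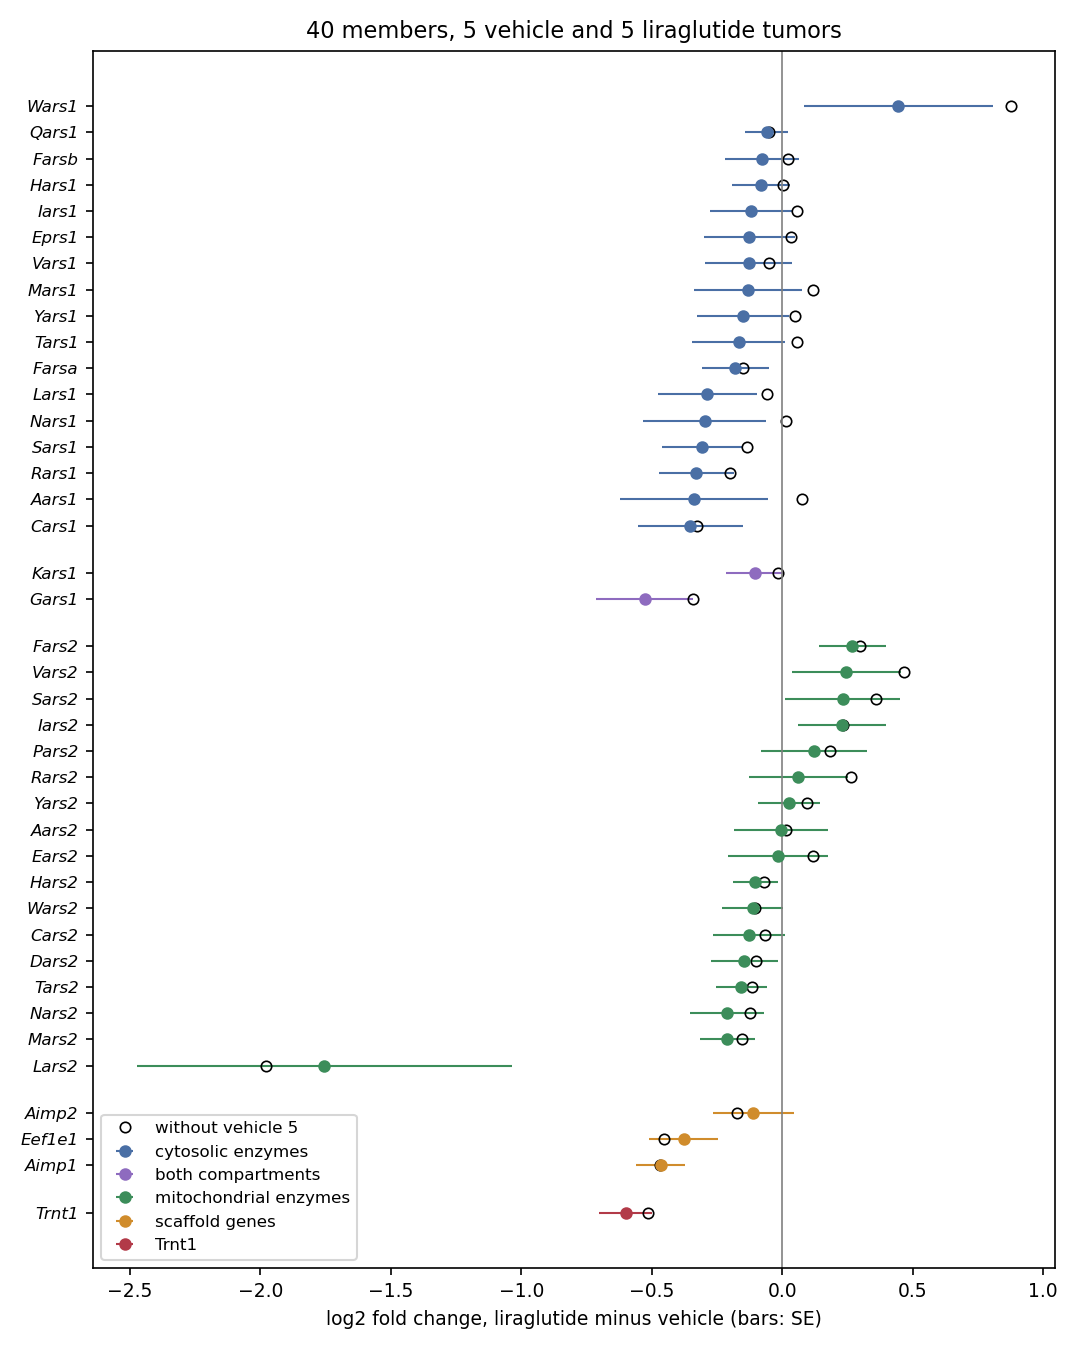
Log2 fold change, liraglutide minus vehicle, of 40 of the 41 members (filled points, with the SE as bars), grouped by class, from 5 vehicle and 5 liraglutide tumors. Open circles are the values without vehicle tumor 5. Most cytosolic enzymes sit below 0 and move towards it without that tumor, whereas Trnt1, Aimp1 and Eef1e1 stay below.

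Trnt1, the CCA-adding enzyme, had the smallest p among the members. Its level in vehicle tumors 1 to 5 was 99.5, 94.4, 97.8, 92.5 and 123 CPM, and in liraglutide tumors 1 to 5 it was 61.9, 72.4, 69.1, 68.9 and 62.5 CPM. Every liraglutide tumor was below every vehicle tumor, and the gap did not depend on vehicle tumor 5, the highest. The means were 101 ± 12.3 and 67.0 ± 4.54 CPM (SD, n = 5 each) and the fitted level was 0.660 times that of vehicle. The log2 fold change was -0.60 (SE 0.10, edgeR unadjusted p = 9.39e-05, adjusted p = 0.482). The two-sided exact permutation test of this gene gave p = 0.00794, the smallest that 5 against 5 tumors allow. Groups that do not overlap always give this value. Trnt1 already appeared among the smallest p in earlier results of these data, so its difference is not independent evidence. Without vehicle tumor 5 the log2 fold change was -0.51. DESeq2 gave an adjusted p of 0.00147, and over all alternatives the adjusted p ran from 0.000359 to 0.900. Under DESeq2, 0.161% of genes were called lower, and Trnt1 and Aimp1 were the 2 members among them.

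Trnt1 lies on chromosome 6 (106746081 to 106761305, plus strand, GRCm39), and its exons share 2771 bases with those of Crbn on the opposite strand. Crbn, the substrate receptor of a ubiquitin ligase, had 62.7, 69.4, 65.9, 78.6 and 72.7 CPM in vehicle tumors and 59.8, 57.6, 62.9, 56.2 and 51.1 CPM in liraglutide tumors. Its log2 fold change was -0.28 (SE 0.10, edgeR unadjusted p = 0.0130, adjusted p = 0.482), smaller than that of Trnt1. The groups overlapped only in that liraglutide tumor 3 (62.9 CPM) was slightly above vehicle tumor 1 (62.7 CPM). As the strand setting of the counting was not given, how much of the Trnt1 value comes from reads of Crbn, or the reverse, cannot be told.

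Of the 3 scaffold genes, Aimp1 and Eef1e1 were lower with liraglutide at an unadjusted p under 0.05 and Aimp2 was not. Of all genes, 5.62% were lower at that p. None of the 3 was called at an adjusted p under 0.05, and their median log2 fold change was -0.38, against -0.02 over all tested genes. The class was chosen with the small p of Aimp1 in earlier results of these data known. Without vehicle tumor 5 the median was -0.45, so that value did not rest on that tumor.

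Aimp1 encodes the scaffold protein that is also cut and secreted as the cytokine EMAPII. It measured 60.0, 59.2, 52.0, 50.5 and 53.8 CPM in vehicle tumors 1 to 5 and 43.8, 41.9, 38.3, 39.9 and 35.7 CPM in liraglutide tumors 1 to 5. The groups were again fully separate. The means were 55.1 ± 4.30 and 39.9 ± 3.15 CPM (SD, n = 5 each), and the log2 fold change was -0.47 (SE 0.10, edgeR unadjusted p = 0.000445, adjusted p = 0.482). The two-sided exact permutation p was again 0.00794, as separate groups must give. Aimp1 too was among the smallest p in earlier results of these data, so its difference is not independent evidence. DESeq2 gave an adjusted p of 0.00893, with a range of 0.00893 to 0.900 over the alternatives. Aimp1 lies on chromosome 3 (132366242 to 132390131, minus strand, GRCm39) and shares 181 exon bases with Tbck on the other strand, whose log2 fold change was -0.05.

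Eef1e1 encodes the small scaffold subunit also called AIMP3 or p18. It had 25.7, 21.1, 22.9, 19.7 and 16.1 CPM in vehicle tumors and 16.6, 15.8, 14.8, 16.6 and 17.3 CPM in liraglutide tumors. Vehicle tumor 5 lay within the liraglutide range and the other vehicle tumors lay above it. The log2 fold change was -0.38 (SE 0.13, edgeR unadjusted p = 0.0155, adjusted p = 0.482). No other annotated exon overlaps its own on chromosome 13 (38828183 to 38843034).

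Aimp2, the scaffold subunit around which the complex is built, differed little between the groups. Its vehicle tumors had 12.4, 11.3, 15.2, 9.96 and 9.37 CPM and its liraglutide tumors 11.4, 12, 9.70, 10.3 and 10.4 CPM. The liraglutide values lay inside the vehicle range, the log2 fold change was -0.11 (SE 0.15, adjusted p = 0.817), and it was 0.01 without vehicle tumor 3. Its exons overlap those of Eif2ak1 and Pms2, so its counts may be shared.

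**Figure D2:**
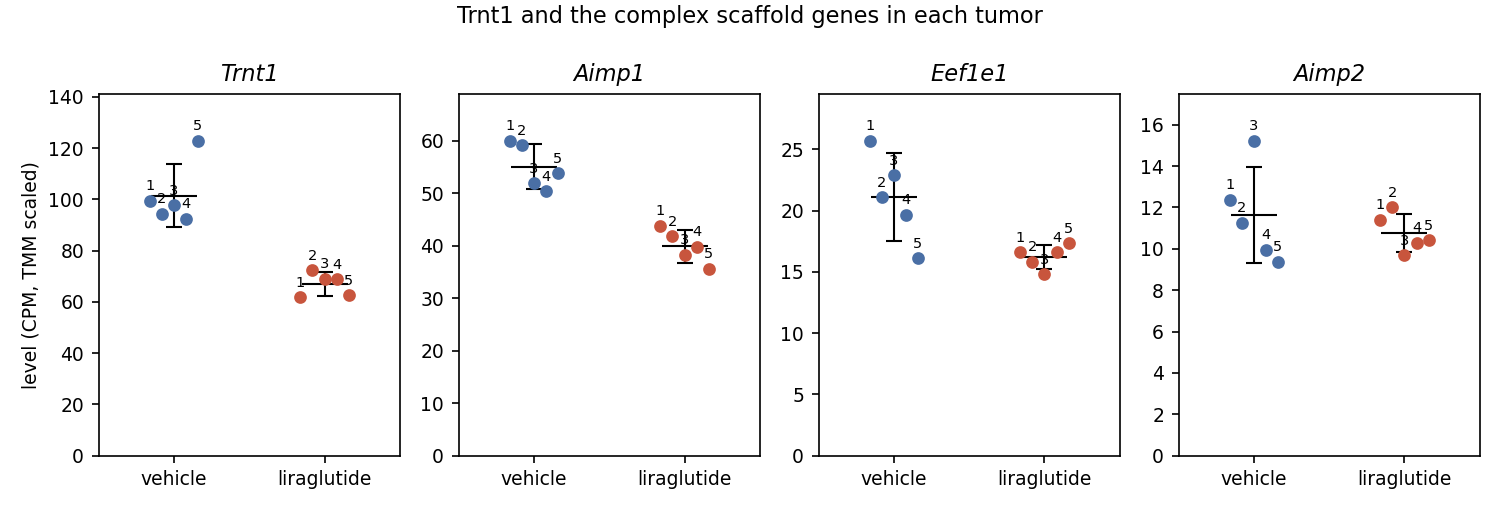
Level (CPM, TMM scaled, axis from 0) of Trnt1, Aimp1, Eef1e1 and Aimp2 in each tumor, numbered 1 to 5 within its group, with the mean and SD of the 5 tumors in black. The groups are separate for Trnt1 and Aimp1, touch at vehicle tumor 5 for Eef1e1 and overlap for Aimp2.

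The 8 enzymes that the complex holds, among them Eprs1, Iars1, Lars1, Mars1, Qars1 and Kars1, had a median log2 fold change of -0.13. For the 12 cytosolic or shared genes outside it the median was -0.17. Over these 20 genes together the median was -0.16 with all tumors. Without vehicle tumor 5 it was -0.01, with 10 genes negative and 10 positive. Of the 8, 2 were lower at an unadjusted p under 0.05, where 5.62% of all genes were, and Rars1, the arginyl enzyme, was one of them. It had 120, 138, 131, 141 and 192 CPM in vehicle tumors and 104, 144, 112, 115 and 99.9 CPM in liraglutide tumors, so liraglutide tumor 2 was above all vehicle tumors but the fifth. Its log2 fold change was -0.33 (SE 0.14, edgeR unadjusted p = 0.0438, adjusted p = 0.515). Without vehicle tumor 5, the highest, it was -0.20 (unadjusted p = 0.115), and the unadjusted p was also above 0.05 with scaling by library size alone (0.0766).

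The cytosolic enzymes as a class had a median log2 fold change of -0.16, with 17 of 18 negative and 2 lower at an unadjusted p under 0.05. Over all genes, 52.6% were negative and 5.62% were lower at that p. That class value rested on vehicle tumor 5. Without it the median was 0.01, with 8 enzymes negative and 10 positive. At an unadjusted p under 0.05, 0 were then lower and 1 higher, where 7.44% of all genes were lower and 6.10% higher. The mitochondrial enzymes had a median of -0.02 (10 negative, 7 positive), and 0.02 without that tumor. For 10 of the 14 amino acids with a matched pair of symbols, the cytosolic enzyme had the lower log2 fold change, and for 7 of the 14 without vehicle tumor 5. The per-tumor difference between the classes, as the median centred log2 CPM of the cytosolic minus that of the mitochondrial enzymes, was -0.25, -0.04, 0.09, 0.09 and 0.39 in vehicle tumors 1 to 5. In liraglutide tumors 1 to 5 it was -0.16, 0.14, -0.12, -0.05 and -0.19. The groups overlapped over most of their range, and vehicle tumor 5 was the highest.

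In vehicle tumor 5 the cytosolic enzymes were high together. That tumor had the highest level of all 10 for 14 of 18 cytosolic enzymes, both shared genes, 9 of 17 mitochondrial enzymes and none of the 3 scaffold genes, whereas 15.4% of all tested genes were highest there. Relative to the mean of the other 4 vehicle tumors, the median fold was 1.59 for cytosolic enzymes (range 1.00 to 2.72), 1.18 for mitochondrial enzymes, 0.768 for scaffold genes, 1.28 for Trnt1 and 0.971 for all tested genes. At 1.5-fold or above were 10 cytosolic and 2 mitochondrial enzymes, the latter being Rars2 and Vars2. These are values of a single tumor and were not tested.

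Nars1, the asparaginyl enzyme and the most abundant cytosolic one per length, showed this pattern clearly. It had 175, 217, 250, 259 and 490 CPM in vehicle tumors 1 to 5 and 211, 229, 256, 235 and 202 CPM in liraglutide tumors 1 to 5. Apart from vehicle tumor 5 the groups covered much the same range, and the log2 fold change moved from -0.30 (SE 0.24) to 0.01 without it. Aars1, the alanyl enzyme, had 119, 145, 127, 159 and 363 CPM against 120, 171, 156, 143 and 131 CPM. Its log2 fold change moved from -0.34 (SE 0.28) to 0.08. Sars1, the seryl enzyme, had 133, 142, 136, 164 and 233 CPM against 130, 142, 137, 128 and 116 CPM. Its log2 fold change moved from -0.31 (SE 0.15) to -0.13.

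Not every cytosolic enzyme was high in that tumor. Qars1, the glutaminyl enzyme, was at 1.00 times the other vehicle tumors, and Cars1 and Farsa were both at 1.08 times. Cars1, the cysteinyl enzyme, had 114, 155, 115, 78.5 and 124 CPM in vehicle tumors and 88.8, 135, 85.3, 76.3 and 73.8 CPM in liraglutide tumors. It was high in tumor 2 of both groups, and its log2 fold change (-0.35, SE 0.20, adjusted p = 0.588) depended on which tumor was left out. It was -0.33 without vehicle tumor 5, -0.23 without vehicle tumor 2, -0.46 (unadjusted p = 0.0284) without vehicle tumor 4, the lowest of its group, and -0.52 (unadjusted p = 0.0118) without liraglutide tumor 2.

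**Figure D3:**
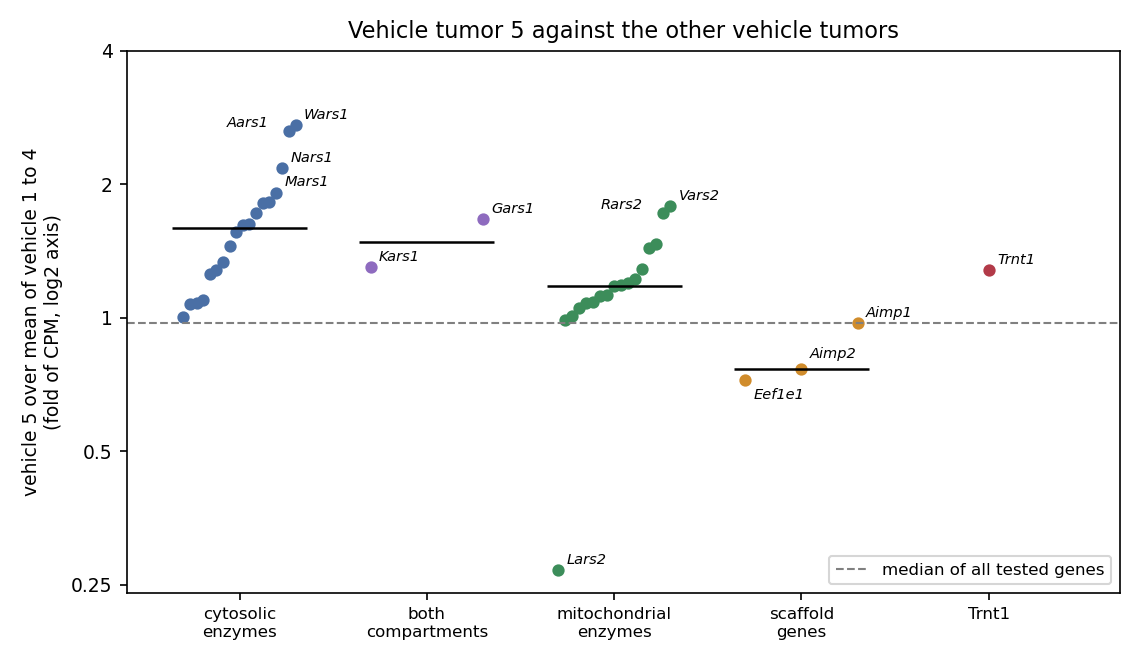
Level in vehicle tumor 5 divided by the mean of vehicle tumors 1 to 4 (fold of CPM, log2 axis) for the 41 members by class, with class medians as black bars and the median of all tested genes (0.971) dashed. Cytosolic enzymes reach 2.72 and scaffold genes lie at or below 0.972.

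The reference list of the integrated stress response, 22 genes that hold no member, was high in the same tumor. It was highest there for 20 of 22 genes (15.4% of all tested genes), with a median of 2.47 times the other vehicle tumors. With liraglutide 21 of 22 were negative in log2 fold change (median -0.32), against 52.6% of all genes. At an unadjusted p under 0.05, 2 were lower (5.62% of all genes), Phgdh (-0.81) and Slc7a11 (-0.70), which were at 1.02 and 1.22 times in vehicle tumor 5. Without that tumor the list's median was 0.10, with 7 negative and 15 positive. Asns, the asparagine synthetase gene, was at 30.3, 51.2, 47.2, 81.4 and 206 CPM in vehicle tumors, and Atf4 itself at 157, 191, 184, 166 and 264 CPM. Both were highest in vehicle tumor 5, at 3.92 and 1.51 times the others, and Ddit3 was at 2.43 times. The 20 interferon-gamma target genes described with Wars1 below were also high in that tumor, with a median of 3.47 times the other vehicle tumors, and 12 of them were highest there. The 5 cytosolic or shared genes with the promoter element shown above were at 1.63 to 2.63 times in that tumor (median 1.73). The 8 with a window but no match were at 1.00 to 1.91 times (median 1.32), so the ranges overlapped. Mars1, in which no match was found, was at 1.91 times, but its exons share 3576 bases with Ddit3 on the opposite strand.

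Some markers of other cell types differed in vehicle tumor 5. Its 3 fibroblast markers were at a median of 0.435 times the other vehicle tumors, the keratinocyte markers at 0.471 times, the tested adipocyte markers at 0.468 times, the tested leukocyte markers at 0.902 times and the lung epithelial markers at 1.62 times. The lung epithelial markers went both ways, with Nkx2-1 at 1.62, Napsa at 2.13 and Sftpc at 0.583 times. So did the epithelial markers, with Krt8 at 1.48 times, Krt18 at 1.19 times and Epcam at 0.0536 times. The muscle markers were at 1.09 times and the endothelial markers at 0.808 times. Their part in the synthetase levels was not tested. Between the treatment groups, the summed keratinocyte markers ran from 8.36 to 14.6 CPM in vehicle and from 6.65 to 142 CPM in liraglutide tumors. All 3 were positive in log2 fold change, 2 of them at an unadjusted p under 0.05, and Krt5 was at 0 in 4 tumors. Of all genes, 3.97% were higher at that p and 52.6% were negative in log2 fold change. The 3 lung epithelial markers were all positive (median log2 fold change 0.99), 1 of them, Nkx2-1, at an unadjusted p under 0.05, and their sum ran from 18.9 to 101 CPM and from 56.3 to 140 CPM. The 3 muscle markers had a median of 0.92 and the 2 tested adipocyte markers -0.74, with 0 at an unadjusted p under 0.05 in either list. The 3 endothelial markers had a median of -0.04 and the 3 epithelial markers -0.23, again with 0 at that p. The summed fibroblast markers ran from 436 to 1125 CPM and from 640 to 1290 CPM, and the leukocyte markers from 51.1 to 108 CPM and from 55.8 to 112 CPM. What these add to the Trnt1 and Aimp1 differences was not tested.

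Gars1, which makes the glycyl enzyme of both compartments, had the highest level per length of all members (98.3 CPM per kb). It measured 238, 293, 260, 204 and 415 CPM in vehicle tumors and 178, 250, 185, 199 and 166 CPM in liraglutide tumors. The groups overlapped, with liraglutide tumor 2 above vehicle tumors 1 and 4. The log2 fold change was -0.53 (SE 0.19, edgeR unadjusted p = 0.0162, adjusted p = 0.482) and -0.34 without vehicle tumor 5. Kars1, the lysyl enzyme of both compartments, had a log2 fold change of -0.11 (SE 0.11), and -0.02 without vehicle tumor 5.

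Wars1, the tryptophanyl enzyme, was the one cytosolic gene with a positive log2 fold change. Its vehicle tumors had 70.9, 71.1, 65.5, 140 and 237 CPM and its liraglutide tumors 92.3, 161, 163, 178 and 202 CPM. Vehicle tumors 1 to 3 were the lowest of all and vehicle tumor 5 the highest, and the groups overlapped over most of their range. The log2 fold change was 0.44 (SE 0.36, edgeR adjusted p = 0.688). Without vehicle tumor 5 it was 0.88 (unadjusted p = 0.00968), still not called among all genes.

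The Wars1 level followed that of a list of 20 interferon-gamma target genes, which holds no member, from tumor to tumor. The mean centred log2 CPM of the list was -2.04, -1.57, -0.85, 0.52 and 1.2 in vehicle tumors 1 to 5 and -0.29, 0.28, 0.84, 0.90 and 1.02 in liraglutide tumors 1 to 5. Tumors high for the list were high for Wars1 in both groups. Over the 10 tumors Pearson's r was 0.935 (two-sided permutation p = 0.00024) and Spearman's rho 0.952 (permutation p = 0.00018), the only relation computed. Without the 2 tumors farthest from the list's median, vehicle tumors 1 and 2, r was 0.973. Vehicle tumors 1 to 3 stood apart at the low end, and over the other 7 tumors r was 0.938 (exact permutation p = 0.00437). With each treatment's mean subtracted, r over the 10 tumors was 0.918 (exact permutation within treatments, two-sided p = 0.00396). The list itself was positive in log2 fold change for all 20 genes (median 0.69), with 0 at an unadjusted p under 0.05. All 5 tested leukocyte markers were positive (median log2 fold change 0.21), with 0 at an unadjusted p under 0.05. Their median centred log2 CPM was -0.55, -0.51, 0.22, 0.37 and -0.12 in vehicle tumors 1 to 5 and -0.48, -0.30, 0.43, 0.52 and 0.54 in liraglutide tumors 1 to 5, lowest in vehicle tumors 1 and 2 as for the list. Vehicle tumor 5, the highest for the list, was below vehicle tumor 3 for these markers. Nkx2-1 had 25.2, 17.7, 26.6, 95.4 and 66.6 CPM against 66.1, 52.2, 109, 99.9 and 132 CPM, and vehicle tumors 1 to 3 were the lowest. Their part in the levels of the list and of Wars1 was not tested.

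**Figure D4:**
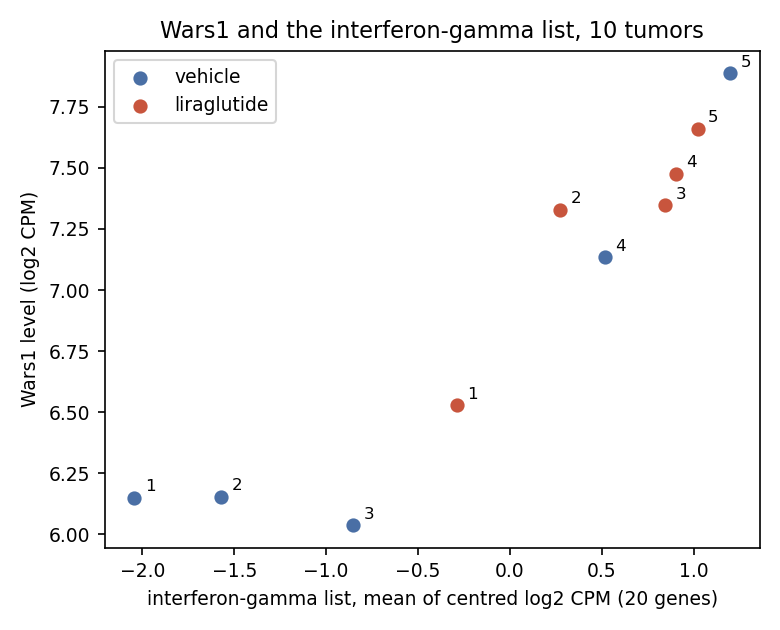
Wars1 level (log2 CPM) against the mean centred log2 CPM of 20 interferon-gamma target genes in 10 tumors, numbered within vehicle (blue) and liraglutide (red). The points run upward from vehicle tumors 1 to 3 at the lower left to vehicle tumor 5 at the upper right (r = 0.935).

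The mitochondrial enzymes were expressed at lower levels than the cytosolic ones. The median level per kb of transcript was 3.02 CPM per kb, from 1.30 in Sars2 to 20.7 in Iars2, against 33.7 CPM per kb for cytosolic enzymes, from 13.2 in Farsa to 91.9 in Nars1. In all 14 matched pairs the cytosolic gene was higher, by 1.5 times for the threonyl pair (Tars1 and Tars2) to 47.5 times for the asparaginyl pair (Nars1 and Nars2), with a median of 8.35 times. Trnt1 stood at 36.7 CPM per kb and Aimp1 at 41.5, both within the cytosolic range. Eef1e1 (7.31 CPM per kb) and Aimp2 (5.15) were in the range of the mitochondrial enzymes. These levels divide by the canonical transcript length, and long unspliced or unused exons would lower them.

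Lars2, the mitochondrial leucyl enzyme, was the mitochondrial member with an unadjusted p under 0.05, and 1 tumor decided its value. Vehicle tumors 1 to 5 had 35.8, 233, 19.6, 15.0 and 20.4 CPM, and liraglutide tumors 1 to 5 had 14.1, 15.4, 21.8, 22.1 and 22.5 CPM. Vehicle tumor 2 was 11.3 times the mean of the other 9 tumors, which overlapped between groups. The log2 fold change was -1.75 (SE 0.72, edgeR adjusted p = 0.504) with all tumors, the two-sided exact permutation p was 0.317, and the log2 fold change was -0.25 (SE 0.25) without vehicle tumor 2. In the same tumor the mitochondrial 12S ribosomal RNA, mt-Rnr1, stood at 582 CPM against 19.3 to 56.7 in the other tumors, and the 16S RNA, mt-Rnr2, at 1107 against 235 to 542 CPM. The 2 mitochondrial ribosomal RNAs made 0.160% of the counts there and 0.0255% to 0.0614% elsewhere. Whether the Lars2 value and these RNAs are connected was not tested.

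**Figure D5:**
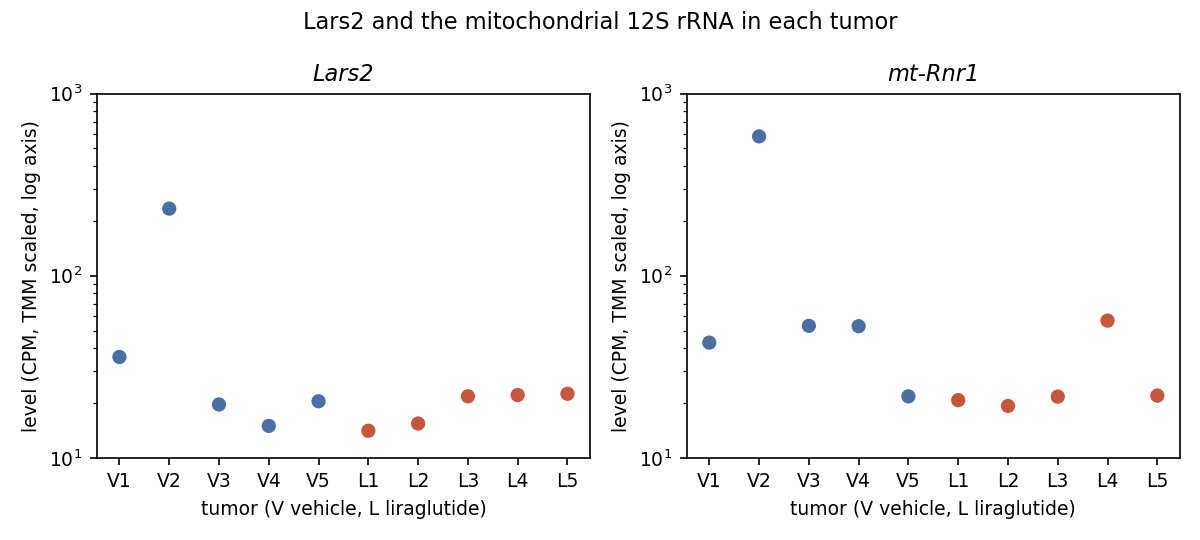
Level (CPM, TMM scaled, log axis) of Lars2 and of the mitochondrial 12S ribosomal RNA mt-Rnr1 in vehicle tumors 1 to 5 (V) and liraglutide tumors 1 to 5 (L). Vehicle tumor 2 is highest for both, at 233 and 582 CPM.

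The largest positive differences among mitochondrial enzymes were small. Fars2, the phenylalanyl enzyme, had 15.1, 12.5, 16.6, 18.2 and 16.8 CPM in vehicle tumors and 20.9, 16.1, 20.02, 19.7 and 18.5 CPM in liraglutide tumors, with a log2 fold change of 0.27 (SE 0.13, edgeR adjusted p = 0.535). Only liraglutide tumor 2 lay within the vehicle range. Vars2, the valyl enzyme, had 37.0, 40.2, 41.5, 51.6 and 76.1 CPM against 61.5, 44.3, 66.6, 49.9 and 70.0 CPM. Its highest tumor was again vehicle tumor 5, and its log2 fold change of 0.25 (SE 0.21) was 0.46 without it. Iars2, the isoleucyl enzyme and the most abundant mitochondrial one, had a log2 fold change of 0.23 (SE 0.17), and Sars2 had 0.23 (SE 0.22).

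On the negative side, Mars2, the methionyl enzyme, had 21.8, 21.1, 21.7, 24.8 and 26.4 CPM in vehicle tumors and 18.9, 18.4, 21.4, 21.4 and 19.9 CPM in liraglutide tumors. Its log2 fold change was -0.21 (SE 0.11, edgeR adjusted p = 0.549). Nars2, the asparaginyl enzyme, had -0.21 (SE 0.14) and Tars2, the threonyl enzyme, -0.16 (SE 0.10), with overlapping groups in each. Rars2, the arginyl enzyme, ranged from 17.3 CPM in vehicle tumor 3 to 37.7 CPM in vehicle tumor 5, with a log2 fold change of 0.06 (SE 0.19). The 16 mitochondrial enzymes other than Lars2 lay between -0.21 and 0.27.

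Other genes of tRNA maturation lay closer to the median of all genes than Trnt1 did. Of a list of 30 (RNase P, tRNA splicing and ligation, 3′ trailer removal and export), 29 were tested and the median log2 fold change was -0.08. At an unadjusted p under 0.05, 2 were lower and 0 higher, a share near the 5.62% of all genes that were lower. They were Rpp38, an RNase P subunit (-0.50, SE 0.16), and Trmt10c, a subunit of mitochondrial RNase P (-0.35, SE 0.13). Elac2, which trims the 3′ trailer just before CCA is added, had 0.02 (SE 0.14). Among 12 genes of charging and its proofreading, 11 were tested with a median of -0.01, and only Prorsd1 (-0.35, SE 0.14) had an unadjusted p under 0.05. Tars3, a threonyl enzyme gene whose symbol falls outside the rule, had 0.19 (SE 0.16).

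Of the ribosomal protein genes, 62 of 81 tested cytoplasmic ones were lower at an unadjusted p under 0.05, with a median log2 fold change of -0.38. For the mitochondrial ones these values were 6 of 76 and -0.09. The cytosolic enzymes, at 2 of 18 and -0.16, and the mitochondrial enzymes, at 1 of 17 and -0.02, are set beside them without a test of the difference. Of all genes, 5.62% were lower at that p, and the shares of both mitochondrial groups were near that. Without vehicle tumor 5 the cytosolic enzymes were at 0 of 18 and 0.01, where 7.44% of all genes were lower. The ribosomal protein genes are not given without it.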

How the data were processed

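The authors depleted ribosomal RNA with a strand-marking (dUTP) kit, sequenced paired reads of 100 bases and mapped them with Bowtie 1.0.1 and TopHat 2.0.13. Reads were counted per gene with featureCounts, and some samples had been removed at quality control. Their methods name GRCm39, while the submitters' processing notes name GRCh38, mm10 and FastQC. The annotation release and the strand setting are not given in the sources used here. The deposited values are raw counts per gene, with no normalization, in 10 columns.

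Groups came from the sample titles. Of the 55401 identifiers, 51731 (93.38%, holding 98.31% of the counts) matched GENCODE M39 on GRCm39, the source of symbols, coordinates and transcript lengths, and only 35 had the same version. Genes were filtered with filterByExpr and tested with edgeR 4.0.16 (R 4.3.3) by the quasi-likelihood F test on treatment, with Benjamini-Hochberg adjustment over 17464 genes. SEs are those of that test. CPM used TMM-scaled library sizes, and log2 CPM a prior count of 2. Log2 CPM of single genes was also tested by exact permutation, two-sided, and correlations used 100000 resamples (scipy 1.17.1). Promoter windows were RefSeq's on GRCm38.p6 and were not mixed with GRCm39 positions.

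A floor of 3 counts corresponded to 0.207 to 0.315 CPM, which covers counting error only. The smallest chi-square per degree of freedom between tumors of a group was 8.38, so the tumors were counted as separate samples. Genes were named as follows: Trnt1, the scaffold genes and Wars1, then, among cytosolic with shared genes and among mitochondrial enzymes, the 5 of smallest p, the 3 of highest level per kb and the 3 of widest range, and every member without overlap. Other named genes bear on one of these or were chosen after their values were seen (Mars1, Qars1, Farsa, Sars2, Elac2 and Tars3, and the genes beside the promoter element). The members, lists and tests were chosen with earlier results of these data known, in which Trnt1 and Aimp1 already appeared among the smallest p, so their differences are not independent evidence. Alternatives were DESeq2 1.42.0, other scalings and filters, a block for tumor number and each tumor left out in turn. DESeq2 with independent filtering and the correlation without vehicle tumors 1 to 3 or with treatment means subtracted were added after seeing the data. The scripts were tested on simulated data. The values of 1 member, the alleles of the line and 1 promoter match are not reported here.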

Additional observations from a re-analysis of the deposited data

Results flagged for a closer look

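In 82 groups of 5 tumors (41 members, 2 treatments), 12 had a lowest or highest tumor farther from the others than Dixon's 95% limit. For a single group chance gives about 1 in 20. The members were measured in the same tumors, so the 82 groups are not independent and their count is not a test against that rate. Of these, 7 were vehicle tumor 5 as the highest of its group: Aars1 at 363 CPM, Iars1 at 254 CPM, Nars1 at 490 CPM, Rars1 at 192 CPM, Tars1 at 178 CPM, Yars1 at 85.2 CPM and Trnt1 at 123 CPM. They include 6 cytosolic enzymes and 0 mitochondrial enzymes.

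Vehicle tumor 2 was highest for Lars2 (233 CPM), and vehicle tumor 4 lowest for Aars2 (5.61 CPM, the next being 8.19). Liraglutide tumor 2 was highest in its group for Cars1 (135 CPM) and lowest for Iars2 (89.8 CPM), and liraglutide tumor 3 was highest for Qars1 (113 CPM).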

How the results depend on the processing

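Under DESeq2, 40 genes of the whole table were called, 21 with an absolute log2 fold change over 0.58 as well, and 102 with independent filtering (added after seeing the data), where edgeR called 0 under every alternative run, each tumor left out included. Trnt1 had a log2 fold change of -0.60 under DESeq2 with and without that filtering (adjusted p = 0.000359 and 0.00147) and was called by it alone. Aimp1 (-0.46) was called by DESeq2 without that filtering, and its adjusted p was withheld with it. Leaving out each tumor, Trnt1 ran from -0.63 to -0.51. Members with a higher level at an unadjusted p under 0.05 numbered 1 under library size alone and 1 with at least 10 counts in every tumor, where 5.67% and 5.04% of all genes were higher. They numbered 2 with the replicate block and 0 to 2 with a tumor left out (2 without vehicle tumor 4 or 5, 1 without liraglutide tumor 2), where 7.12%, 6.10% and 5.85% of all genes were higher. Lower members numbered 4 to 8 with a tumor left out (4 without liraglutide tumor 1 or 3, where 4.78% and 3.35% of all genes were lower, and 8 without vehicle tumor 1 or 4, where 4.07% and 8.06% were). Among the members given by the naming rule, the sign turned for Aimp2 (-0.17 to 0.01) and Rars2 (-0.04 to 0.26) without vehicle tumor 3 (0.0071 and -0.040). It turned for Nars1 (-0.43 to 0.01) and Aars1 (-0.46 to 0.08) without vehicle tumor 5 (0.015 and 0.075). The ranges cover each tumor left out. Of all cytosolic enzymes, 9 turned from negative to positive without vehicle tumor 5. Among them were Iars1 (to 0.06), Mars1 (to 0.12), Tars1 (to 0.06) and Yars1 (to 0.05), which were named for other reasons. For Aimp2, Rars2, Nars1 and Aars1 the cause was not tested. The median of the mitochondrial enzymes ran from -0.10 to 0.03 over all alternatives, that of the cytosolic enzymes from -0.23 to 0.01 and that of the scaffold genes from -0.45 to -0.30.

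Same-numbered tumors came from different mice. Their deviations from the group means correlated at 0.354, 0.565, -0.0753, 0.0681 and 0.389 for numbers 1 to 5, with a mean of 0.260 against -0.0682 for differently numbered tumors, and only tumor 2 correlated best with its own number. As 2 of the 5 correlations were below 0.1, the numbers were not taken to pair the tumors, although the means lean towards pairing. With the replicate block 0 genes were called, 6 members were lower and 2 higher at an unadjusted p under 0.05 (7.31% and 7.50% of all genes), the higher ones being Wars1 (0.59, unadjusted p = 0.0284) and Fars2 (0.27, unadjusted p = 0.0418), Trnt1 was at -0.59, the unadjusted p of Rars1 was 0.0543 and that of Cars1 0.0152, and the median of cytosolic enzymes was -0.12.

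Each group had only 5 tumors, and the spread between tumors was not compared with counting error member by member.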
